A study of Mus musculus with 4 samples.

Results

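Expression of 60 genes for protein chaperones, their helpers and the unfolded protein response was described in the ventral midbrain of mice with and without the clock repressor REV-ERBα, which Nr1d1 encodes. The genes are BAG co-chaperones, heat shock proteins, J-domain proteins, heat shock factors, cold-inducible RNA-binding proteins, and the sensors and folding enzymes of the endoplasmic reticulum. For 57 of the 60 the array carried a probe set annotated to that gene alone, out of 19938 genes with such a probe set. Hsf1, Hsp90ab1 and Hspa1b had none and were not analysed here. Where a gene had several probe sets, the brightest by its mean over the 4 arrays stood for the gene, and all 57 lay above the filter on dim probe sets (a mean of log2 7.38, or an intensity of 167), as did 13587 genes in all.

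The data came from 2 arrays of Rev-erba knock-out mice (RKO) and 2 arrays of wild-type mice (WT). All were males on a C57BL/6J background, aged 10 to 15 weeks, entrained for more than 10 days to a cycle with 12 h of light and then kept for 2 days in constant darkness before tissue was taken on the day that followed. The clock hour of collection, the part of Nr1d1 that was deleted and the number of mice per array are not given in the sources used here. Replicates are called biological in the labels. If they do not stand for separate mice, the p-values measure only the spread between these samples. In tissue of many cell types, fewer cells of a type and less RNA per cell cannot be told apart.

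Chaperones of the HSP70 family hold unfolded stretches of other proteins and release them as ATP is turned over. J-domain proteins bring clients and start that cycle, and BAG proteins and HSP110 proteins help to reopen it. HSP90 acts later on nearly folded clients such as steroid receptors and kinases. In the cytosol, unfolded protein activates the heat shock factor HSF1, which drives transcription of many of these genes. In the endoplasmic reticulum the sensors IRE1α, PERK and ATF6 drive the factors XBP1, ATF4 and CHOP and the folding enzymes of that compartment. Several heat shock genes and the cold-inducible genes Cirbp and Rbm3 are also known to follow the daily rhythm of body temperature.

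Of the 60 genes, 49 had promoter windows in the RefSeq table (64 windows on GRCm38.p6, 250 bases before to 50 after an annotated start). The promoter of Bag3 is shown because Bag3 was the 1 gene of the group called in the test, and that of Hspa1a because this inducible HSP70 gene is the usual readout of the heat shock response. The stretches are the 250 bases before the start of Bag3 (chr7:128523333-128523582, plus strand) and of Hspa1a (chr17:34972157-34972406, minus strand), with matches to GAANNTTC, the inward form of the heat shock element, in capitals.
Bag3: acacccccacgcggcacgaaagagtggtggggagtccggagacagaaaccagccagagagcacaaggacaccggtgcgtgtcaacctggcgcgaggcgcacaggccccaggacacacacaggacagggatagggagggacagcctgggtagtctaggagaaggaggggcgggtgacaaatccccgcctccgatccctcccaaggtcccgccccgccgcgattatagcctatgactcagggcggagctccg
Hspa1a: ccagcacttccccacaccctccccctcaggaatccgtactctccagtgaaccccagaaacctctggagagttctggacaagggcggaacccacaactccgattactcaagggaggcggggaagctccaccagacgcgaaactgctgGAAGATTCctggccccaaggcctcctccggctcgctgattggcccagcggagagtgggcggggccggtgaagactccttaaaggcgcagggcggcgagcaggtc

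The Hspa1a match began 104 bases before the start. The 1 match of Bag3 began at base 43 after its start. GAANNTTC reads the same on both strands. It occurred in 7.86% of all 32851 windows and in 15 of the 64 windows here, those of 13 of the 49 genes. A gene can have several windows, so only counts of windows compare with the percentages. The sites of 5 of these genes are shown on the strand of the gene with the fixed letters in capitals; they lie before the start in Hspa1a and Hspb1 and after it in Bag3, Hspb8 and Hsph1.
Bag3 (chr7:128523618-128523632, plus): gggaccaGAAgtTTC
Hspa1a (chr17:34972246-34972267, minus): actgctgGAAgaTTCctggccc
Hspb1 (chr5:135887795-135887816, plus): aacaagaGAAgtTTCcagatgg
Hspb1 (chr5:135887815-135887836, plus): gggggcaGAAccTTCctggccc
Hspb8 (chr5:116422848-116422869, minus): gccaggaGAAgtTTCtaggctc
Hsph1 (chr5:149636281-149636302, minus): gattctgGAAagTTCtcctcag

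The endoplasmic reticulum stress element was searched on both strands as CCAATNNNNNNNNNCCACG. It was found in 0.119% of all windows and in 7 of the 64 windows here, those of 7 of the 49 genes. All 7 genes encode chaperones or folding enzymes of that compartment. These sites are shown because they mark the set of genes whose values are given further on. All lie before the start. They are written on the strand on which the element reads.
Calr (chr8:84847075-84847093, plus): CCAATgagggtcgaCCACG
Canx (chr11:50325800-50325818, minus): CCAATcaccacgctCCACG
Creld2 (chr15:88819520-88819538, minus): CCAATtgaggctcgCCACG
Dnajc3 (chr14:118937827-118937845, plus): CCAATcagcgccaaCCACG
Hsp90b1 (chr10:86705533-86705551, plus): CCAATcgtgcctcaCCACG
Hsp90b1 (chr10:86705638-86705656, minus): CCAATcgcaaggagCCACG
Hspa5 (chr2:34772025-34772043, plus): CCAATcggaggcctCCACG
Pdia6 (chr12:17266491-17266509, plus): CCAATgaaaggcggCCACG

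The remaining motifs were searched on both strands as well. The outward heat shock element TTCNNGAA can overlap the inward one. It was found in 8.52% of all windows and in 10 of the 64 windows here (8 genes). The E-box CACGTG stood in 7.15% of all windows and in 7 of the 64 (6 genes). AGGTCA is the core of the ROR element to which REV-ERBα binds. It stood in 16.3% of all windows and in 9 of the 64 (9 genes, Hspa1a, Hspa5 and Ddit3 among them). The D-box TTATGNAA was present in 3.38% of windows and in 1 of the 64, that of Hspa2. TGATGNAA, a composite site of ATF4 and CHOP, was present in 3.97% of windows and in 1 of the 64, that of Herpud1. TGACGTGG, the unfolded protein response element, was present in 0.676% of windows and in 0 of the 64. The Bag3 window held a match to the inward heat shock element and to no other of these motifs. A match describes letters in a short window and not a bound site.

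The labels and the tissue were checked first. Nr1d1 had intensities of 2897 and 3099 on the WT arrays and of 1259 and 1229.7 on the RKO arrays, a log2 difference of -1.27 (SE 0.0589, limma adjusted p = 2.44e-06). All 13 dopamine neuron markers lay above the filter. Median intensities over all probe sets ran from 236 to 240.1. RKO replicate 1 was the lowest of the 4 arrays in 43.6% of tested genes and in 28 of the 57 genes described here.

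Bag3 was the 1 gene of the 57 that passed the test. It encodes a stress-inducible BAG protein that couples HSP70 to the small heat shock protein HSPB8 and hands clients to autophagy. Its intensity was 344 and 351 on the WT arrays and 495 and 524 on the RKO arrays. Both RKO values lay far above both WT values, and the gap was wider than the spread within either group. The rise was 1.46-fold (log2 difference 0.55, 95% interval 0.42 to 0.68, SE 0.0577, limma adjusted p = 7.48e-04). By size it was among the 12 largest rises of all tested genes (0.0883%). Bag3 was known to differ when the group was drawn up, so its place among the 60 genes is a description.

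The other BAG genes did not pass the test, and their groups overlapped in all 5. Bag1, which links HSP70 to the proteasome, read 1051 and 1021 in WT and 984 and 1052 in RKO. Bag2, an inhibitor of the ubiquitin ligase CHIP, read 163 and 192 in WT and 189 and 185 in RKO, close to the filter. Bag4, which binds death domains of receptors, read 836 and 874 against 843 and 865. The RKO arrays enclosed the WT arrays in Bag1 and lay between them in Bag2 and Bag4. Bag5, made of repeated BAG domains, read 467 and 436 in WT and 437 and 459 in RKO. Bag6, which hands tail-anchored proteins to the membrane insertion pathway, read 1528 and 1583 against 1540.1 and 1614. Both RKO values of Bag5 lay between the WT values, as did the lower RKO value of Bag6. Their log2 differences lay between -0.03 for Bag1 and 0.08 for Bag2, with a median of -0.0014, and no SE was under 0.0568.

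**Figure D1:**
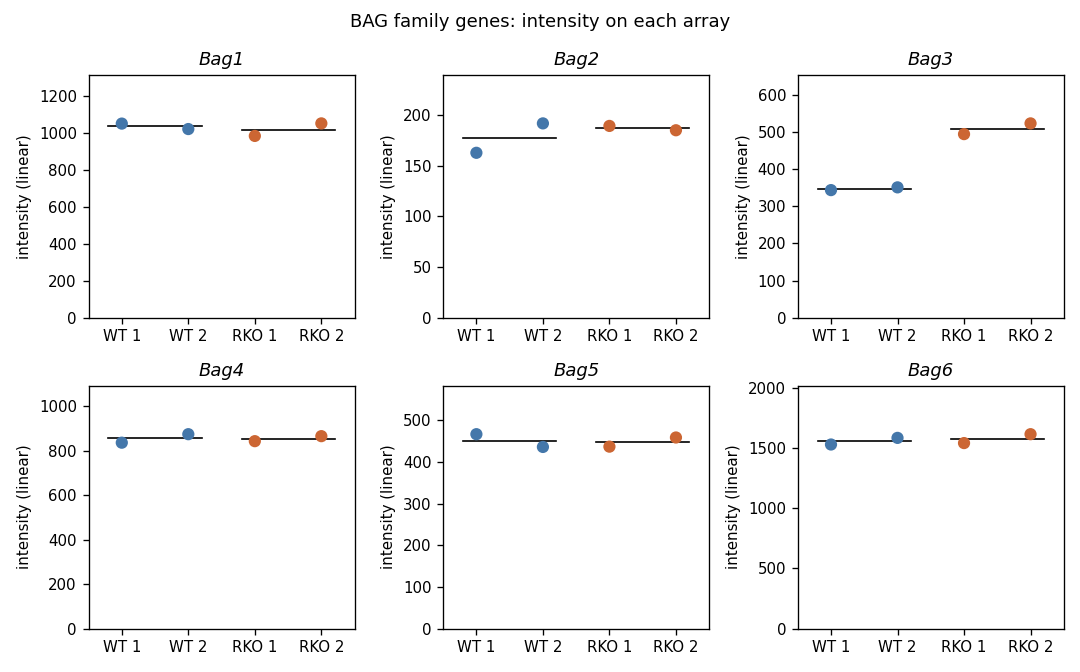
Intensity (linear scale, each axis from 0) of the 6 BAG genes on each array, blue for WT and orange for RKO, with black bars at the group means. Bag3 reads 344 and 351 in WT and 495 and 524 in RKO; in the other panels the groups overlap.

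Bag3 was then set against the other genes within each array, as the log2 value of Bag3 minus the mean log2 value of a set, which removes any shift that an array gives to both. Set against the other BAG genes, Bag3 stood 0.52 and 0.55 above its WT mean on the RKO arrays, against 0.0060 and -0.0060 on the WT arrays. The change of Bag3 thus exceeded that of the other BAG genes by 0.54 (SD within groups 0.018). It exceeded that of 28 heat shock chaperones and their co-chaperones by 0.57 (SD 0.0308) and that of 14 chaperones and folding enzymes of the endoplasmic reticulum by 0.57 (SD 0.0311). In all 3 comparisons both RKO arrays lay above both WT arrays, and the exact two-sided permutation test gave p = 0.333, the smallest value that 2 arrays against 2 allow. The set means themselves moved by only 0.0127, -0.0233 and -0.0211. The 3 comparisons thus repeat the values of Bag3, which was known to differ, and add no separate support. Taken gene by gene, the change of Bag3 exceeded that of the other 56 genes by 0.37 (Dnajb6) to 0.68 (Hsph1).

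HSP70 and HSP110 chaperones differed little between the groups, and 0 of 8 passed. Hspa1a, the inducible HSP70, read 409 and 410.3 in WT and 414 and 428 in RKO. Both RKO values were the higher ones, but the log2 difference of 0.04 was smaller than its SE of 0.0554. Its copy Hspa1b differs from it in 4 of the 300 bases of the promoter window and is nearly identical in sequence, so a probe set named for Hspa1a may read both. Hspa8, the constitutive HSP70 of the cytosol, read 10832 and 10147 in WT, then 10581 and 10286 in RKO (-0.0071), and its groups overlapped. Hspa9, the HSP70 of mitochondria (-0.04), Hspa2 (-0.02), Hspa4 (0.0068), Hspa4l (-0.02) and Hspa12a (-0.07) stayed within 0.1 of 0 as well. Hsph1, the HSP110 that reopens HSP70, read 1941 and 1861 in WT and 1678 and 1796 in RKO. Its RKO values were both the lower ones, and the difference of -0.13 had a 95% interval of -0.26 to 0.0021 (SE 0.0599, limma adjusted p = 0.398).

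HSP90 and its partners gave 0 calls among 6 genes. Hsp90aa1, the inducible HSP90, read 6082 and 5987 in WT and 5831 and 5726 in RKO (-0.06, SE 0.055). Ahsa1, which speeds the HSP90 ATPase, read 1218 and 1267 in WT and 1136 and 1211 in RKO (-0.08). In both genes the RKO arrays lay below the WT arrays by less than 1.5 times the SE. Further probe sets of Hsp90aa1, nearly as bright, gave differences of -0.03 and -0.06 with overlapping groups. Stip1, which joins HSP70 to HSP90, stood at -0.05, Chordc1 at -0.04, the ubiquitin ligase gene Stub1 (CHIP) at -0.03 and the kinase co-chaperone Cdc37 at -0.01. All 6 differences were below 0 as deposited and after median centring, and 5 of 6 were after quantile normalization; 4 of 6 were without WT replicate 1 or without RKO replicate 1. Of all tested genes 43.2% were above 0.

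The mitochondrial chaperonin gave 0 calls among 2 genes. Hspd1 (HSP60) read 2068 and 1966 in WT and 1995 and 2102 in RKO (0.02, 95% interval -0.11 to 0.15), with overlapping groups. Its lid Hspe1 (HSP10) read 1409 and 1393 in WT and 1376 and 1343 in RKO (-0.04, interval -0.17 to 0.08), with both RKO values lower. A second probe set of Hspe1 read 1404 and 1317 in WT and 1423 and 1319 in RKO (0.01), with overlap.

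Of the small heat shock proteins, which hold unfolding proteins without using ATP, 0 of 3 passed. Hspb8, the partner of BAG3, read 384 and 405 in WT and 371 and 353 in RKO. Both RKO arrays were lower, and the difference of -0.13 had an interval from -0.26 to 0.0044 (SE 0.0588, limma adjusted p = 0.410). Hspb1 (HSP27) read 381 and 364 against 345 and 387 (-0.03) and Hspb6 read 543 and 567 against 519.8 and 547 (-0.06), with overlap in both. A second probe set of Hspb1 read 365 and 358 in WT and 335 and 352 in RKO (-0.07), without overlap. The change of Bag3 exceeded the mean change of these 3 genes by 0.62.

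J-domain proteins outside the endoplasmic reticulum went either way, with 0 of 9 called. Dnajb6, a suppressor of polyglutamine aggregation, read 154 and 174 in WT and 195 and 176 in RKO, with a difference of 0.18 (95% interval 0.02 to 0.34 before any adjustment, SE 0.0733, limma adjusted p = 0.324, unadjusted p = 0.0329). Its probe set was the dimmest of the 57, at the level of the filter. A further 4 probe sets named Dnajb6 together with other genes and were left out. The mean of the probe set used was log2 7.35 in WT, below the filter of 7.38, and 7.53 in RKO. Dnajb6 was thus tested only because of its RKO values, and its rise is not read as a result. Its groups did not overlap, but WT replicate 2 and RKO replicate 2 lay almost level. Dnajb1 (HSP40), a classical heat shock gene, read 603 and 581 in WT, with 572 and 663 in RKO (0.06). Its RKO arrays enclosed the WT arrays. Dnajc5, the cysteine string protein of synaptic vesicles, read 3022 and 3039 in WT and 3142 and 3149 in RKO. Its RKO values were both higher, by 0.05, about 1 SE (0.0545). Dnajb2, a neuronal J-domain protein, read 1115 and 1056 in WT and 997 and 1017 in RKO (-0.11, SE 0.0574). Dnaja1 (0.07), Dnaja2 (0.0029), Dnajb4 (-0.03), Dnajb5 (-0.08) and Dnajc6, the auxilin that uncoats clathrin vesicles (-0.05), did not pass.

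Hsf2, a heat shock factor, read 466 and 437 in WT and 432 and 431 in RKO (-0.07, SE 0.0581) and did not pass. The cold-inducible genes gave 0 calls of 2. Cirbp read 1109 and 1168 in WT, with 1090.3 and 1194 in RKO (0.0041, 95% interval -0.14 to 0.14). Its RKO arrays enclosed the WT arrays. Rbm3 read 3060 and 3105 in WT and 3080.2 and 3189 in RKO (0.02, interval -0.10 to 0.15). The 2 further probe sets of Rbm3 gave differences of -0.0026 and -0.0073.

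Sensors and factors of the unfolded protein response gave 0 calls among 6 genes. Xbp1, whose transcript IRE1α splices, read 1972 and 1925 in WT and 2035 and 2111 in RKO. Both RKO values were higher, by 0.09 (95% interval -0.03 to 0.21, SE 0.0562, limma adjusted p = 0.574). The probe set gives the level of Xbp1 and not its splicing. Ern1, which encodes IRE1α, stood at 0.05, and Eif2ak3, which encodes PERK, read 532 and 523 against 483 and 519 (-0.08, SE 0.0594). Atf4, which PERK activates mainly through translation, read 379 and 389 in WT and 368 and 382 in RKO (-0.04). Ddit3 (CHOP), the late factor of the response, read 448 and 431 in WT and 449 and 446 in RKO (0.03), with overlap, and Atf6 stood at -0.04.

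Chaperones and folding enzymes of the endoplasmic reticulum gave 0 calls among 14 genes, and all 14 differences lay within 0.1 of 0. Hspa5 (BiP), the HSP70 of that compartment and the usual readout of the response, read 2781 and 2746 in WT, with 2741 and 2743 in RKO. The RKO values were lower by less than the SE (0.0546), a difference of -0.01 with a 95% interval of -0.13 to 0.11. The 7 genes with a stress element in the window were Hspa5, Pdia6 (0.02), Creld2 (0.0045), Dnajc3 (-0.0020), Canx (-0.04), Calr (-0.09) and Hsp90b1 (-0.09). Sdf2l1 had the highest difference of the 14, at 0.05 (477 and 482 in WT, 474 and 521 in RKO). Hsp90b1 (GRP94), the HSP90 of that compartment, had the lowest, with 2941 and 2946 in WT and 2672 and 2854 in RKO (SE 0.0582, limma adjusted p = 0.576). The calcium-binding lectin chaperone Calr read 3530.2 and 3554 in WT and 3292 and 3363 in RKO. In both of these genes the RKO arrays lay below the WT arrays by less than 2 SE. The remaining genes, Hspa13, Dnajb9, Pdia3, Pdia4, Hyou1 and Herpud1, stood between -0.06 and 0.03. The median of the 14 was -0.0099, and 0.0119 after quantile normalization, so no direction can be given to the group.

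**Figure D2:**
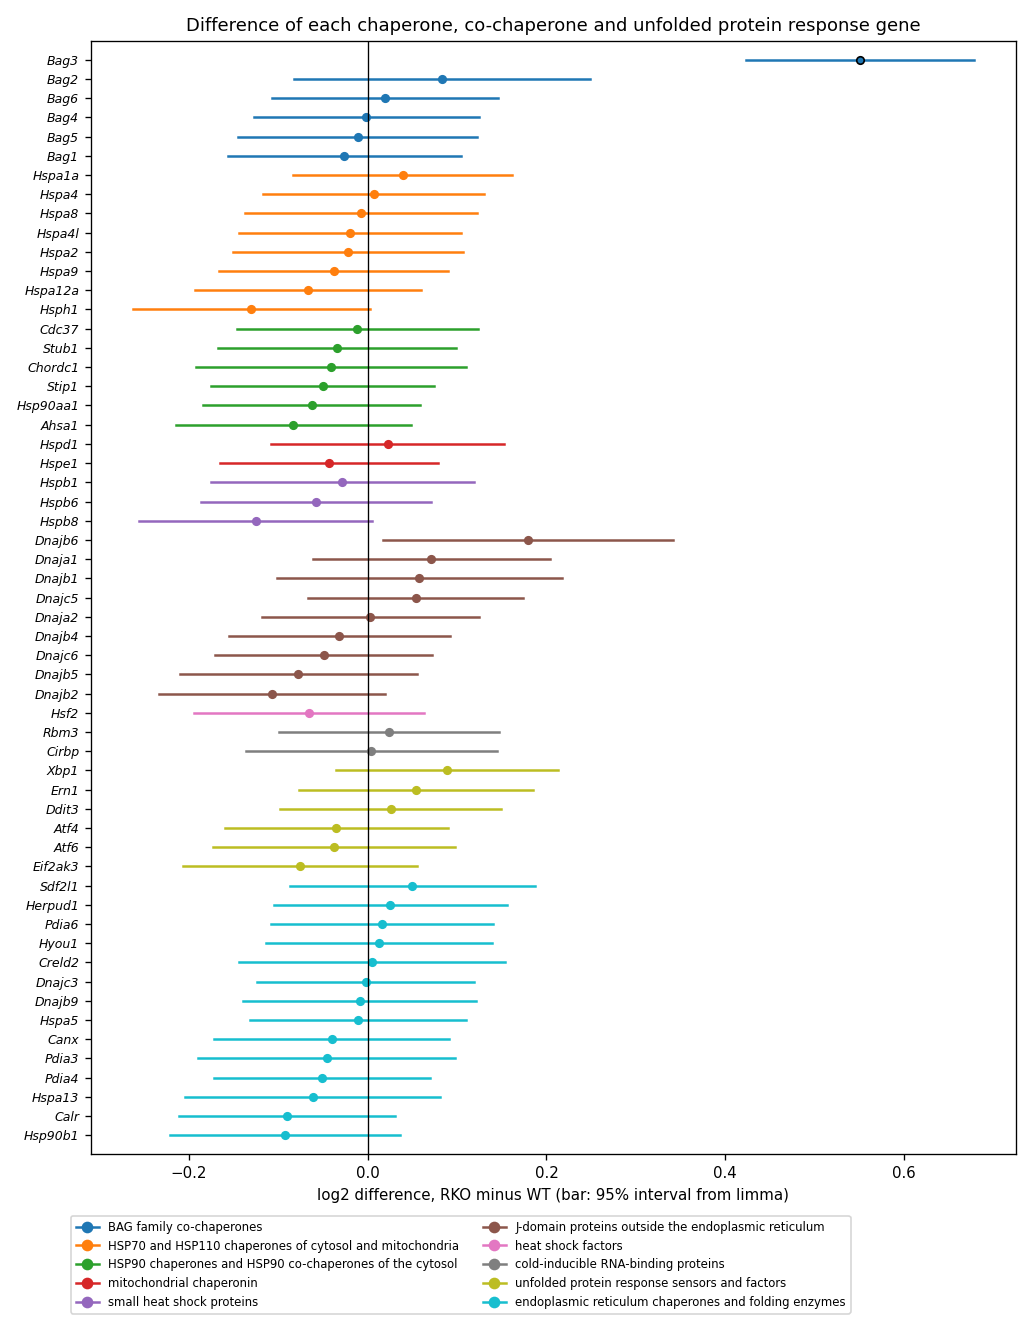
Log2 difference (RKO minus WT) of the 57 genes, coloured by role, with bars for the 95% interval from limma and a black outline where the adjusted p was under 0.05. Bag3 at 0.55 stands apart, and the upper ends of the other 56 intervals reach at most 0.34.

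Across the group, 1 of 57 genes passed the test (1.754%), against a background of 1.6% of all tested genes called in either direction and 0.64% called higher. The share is near the background and says nothing about the group as a whole. Intervals show how far the other genes could have moved: in all 56 the 95% interval excluded a rise or a fall as large as the rise of Bag3, and in 55 of them, all but Dnajb6, it lay within 0.26, the smallest difference called among all genes. The median size of the differences of the 56 was 0.04 on the log2 scale, against 0.05 over all tested genes, and 52 of 56 lay within 0.1 of 0, where 76.3% of all tested genes did. With an unadjusted p below 0.05 stood Bag3 and Dnajb6, 2 of 57, against 12.8% of all tested genes. Both were higher in RKO (background 5.9%) and 0 were lower (background 6.9%), but Dnajb6 passed the filter only through its RKO values. RKO arrays were both higher than both WT arrays in 5 of 57 (background 17.2%): Bag3, Hspa1a, Dnajb6, Dnajc5 and Xbp1. They were both lower in 17 of 57 (background 24.6%), and groups did not overlap in either direction in 41.8% of all tested genes.

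**Figure D3:**
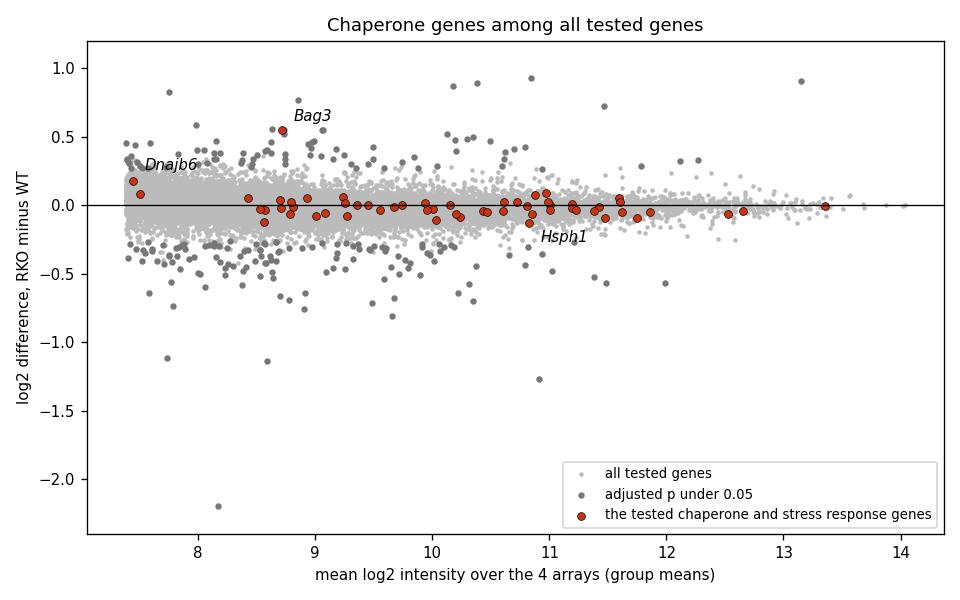
Log2 difference (RKO minus WT) against mean log2 intensity for all 13587 tested genes in grey, with called genes in dark grey and the 57 chaperone and stress response genes in red. Bag3 lies among the called genes, and the other red points follow the zero line from the dimmest (Dnajb6) to the brightest (Hspa8).

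The 2 RKO arrays did not give the same small shifts. RKO replicate 1 read lower than RKO replicate 2 in 41 of the 57 genes (71.93%), as it did in 68.15% of all tested genes, and the median log2 difference between these arrays over the 57 genes was -0.05. Bag3 too read lower on RKO replicate 1 (495) than on RKO replicate 2 (524). The part of this array shift in the small differences of the other genes was not tested. Further probe sets of 8 genes above the filter, 11 in all, gave differences between -0.07 and 0.04. The second probe set of Dnajc3 held the same values as the first.

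**Figure D4:**
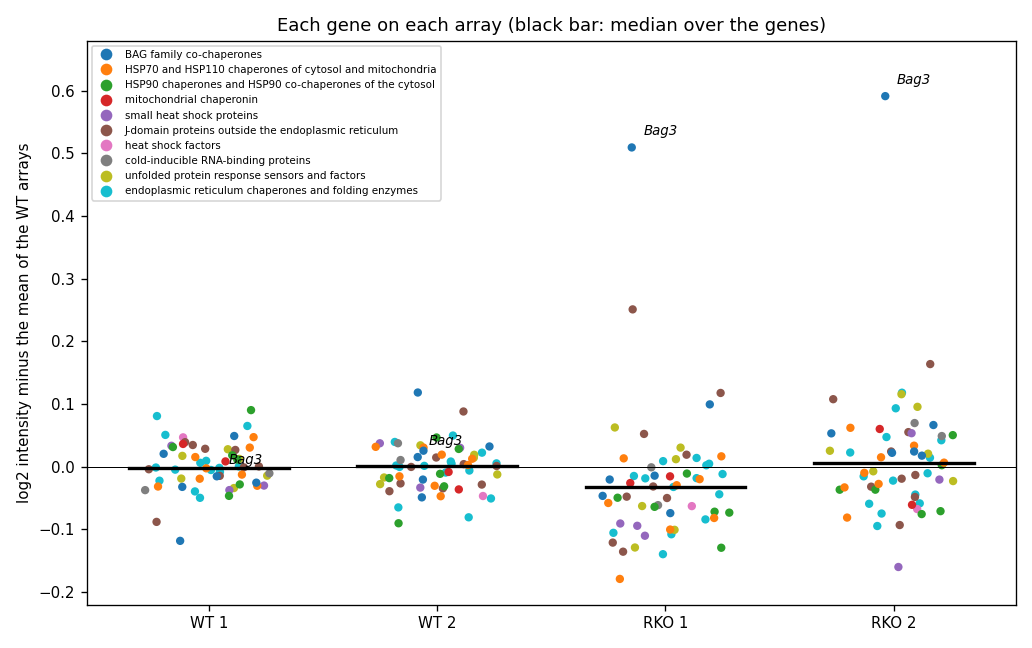
Log2 intensity of each of the 57 genes on each array minus its mean over the WT arrays, coloured by role, with a black bar at the median over the genes. Bag3 is labelled on each array and stands alone above 0.3 on both RKO arrays, while the median is lower on RKO replicate 1 than on RKO replicate 2.

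Related genes outside the 60 were read from 7 lists, with 153 genes tested in all: 0 rose, 2 fell and 151 did not pass. The calls make 1.31% of these genes, near the background of 1.6%, and 11 genes (7.19%) had an unadjusted p under 0.05, where 12.8% of all tested genes had one. Other cytosolic chaperones and co-chaperones gave 0 calls among 29 (median -0.0027), the gene of lowest p being Unc45a, a myosin chaperone (-0.15, limma adjusted p = 0.335). The TRiC chaperonin and prefoldin, which fold actin and tubulin, gave 0 of 14 (median -0.02; Cct3 -0.12). Mitochondrial chaperones and proteases gave 0 of 15 (median -0.01; Dnajc19 0.14). A list of other targets of heat shock factors, with the factor gene Hsf4, gave 0 of 12 (median 0.04, with 11 above 0 and Hsf4 at -0.02, where 43.2% of all tested genes were above 0; Mrpl18 0.13). In each of these 4 lists no gene passed in either direction, against 0.64% of tested genes called higher and 0.964% called lower.

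Among 41 further genes of folding and degradation in the endoplasmic reticulum, Fkbp14 fell and 40 did not pass (median -0.03). Fkbp14, a prolyl isomerase that acts on collagens, read 401 and 396 in WT and 314 and 341 in RKO (-0.28, SE 0.0604, limma adjusted p = 0.0446). Among 24 genes of the ATF4 and CHOP branch, which are targets of these factors and the upstream kinase genes Eif2ak1, Eif2ak2 and Eif2ak4, Slc7a11 fell and 23 did not pass (median -0.02). Slc7a11, the cystine and glutamate exchanger, read 1183 and 1119 in WT and 882 and 904 in RKO (-0.37, SE 0.0577, limma adjusted p = 0.00884). In both genes the RKO arrays lay below both WT arrays by more than the spread within the groups. With any 1 of the 4 arrays left out, which sets 1 array against 2 and assumes that the lone array varies like the others, Fkbp14 lost its call (-0.22 to -0.34, adjusted p = 0.069 to 0.351), and Slc7a11 did so without RKO replicate 1 (adjusted p = 0.111) or RKO replicate 2 (adjusted p = 0.0591). With no filter neither was called (adjusted p = 0.275 and 0.14), and after quantile normalization Fkbp14 was not (adjusted p = 0.0733). Of 22 genes tied to BAG3 in selective autophagy 0 passed (median -0.04). Synpo2, which binds BAG3 at actin structures, had the lowest p, with 1082 and 1145 in WT and 923 and 979 in RKO (-0.23, SE 0.06, limma adjusted p = 0.106). Sqstm1 (p62), the autophagy receptor, stood at 0.01.

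Markers of other cells moved between the same arrays. For the counts of called markers, the background was 0.64% of all tested genes called higher and 0.964% called lower. Of 16 tested leptomeningeal markers, 10 were called lower and 0 higher (median -0.34). Against that, 4 uncalled markers lay above 0, Col1a1 the highest at 0.13. Both RKO values lay above both WT values in 3 of them, Col1a1, Col3a1 and Col1a2. The summed intensity of all 18 ran from 14068 to 14412 in WT and from 11532 to 11606 in RKO. Lum and Foxd1 of that list lay below the filter. Ogn, the lowest of the 10 called (-1.11), read 322 and 304 in WT and 153 and 137 in RKO. Both RKO values of Ogn lay below the filter, so Ogn was tested only because of its WT values. No marker of the list is at 0, but neither is any probe set of these arrays, the lowest reading 6.51. Of 13 dopamine neuron markers 8 were called higher and 0 lower (median 0.31), with sums of 18520 and 18851 in WT and 22575 and 23421 in RKO. Aldh1a1, uncalled, went the other way (-0.10), with both RKO values below both WT values. Of 13 astrocyte markers 2 fell (Gfap -0.51, Aldh1l1 -0.31) and 7 lay above 0, Gja1 the highest at 0.22 (not called), with a median of 0.03 and sums of 39338 to 39536 in WT and 39661 to 40464 in RKO. Of 12 tested oligodendrocyte markers 1 was called, Opalin, which was lower. Yet all 12 had both RKO values below both WT values (background 24.6%), with a median of -0.11. Their sums ran from 43673 to 45033 in WT and from 41247 to 41481 in RKO. Of 5 tested smooth muscle markers Acta2 fell (-0.47), with sums over all 7 of 1690.4 to 1769 in WT and 1476 to 1509 in RKO. Endothelial and pericyte markers gave 0 calls among 12 (median -0.11), with sums of 9886 to 9907 in WT and 9097 to 9591 in RKO. Both RKO values lay below both WT values in 7 of these 12 (background 24.6%). They lay above them in 1, Cldn5 (0.19), and 3 of the 12 were above 0. Microglial markers gave 0 calls among 10. Of 5 lateral hypothalamic genes 1 rose (Cartpt 0.50) and 2 fell (Pmch -1.14, Hcrt -0.52). The part of such shifts in the values of Bag3, Fkbp14, Slc7a11 and Synpo2 was not tested.

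**Figure D5:**
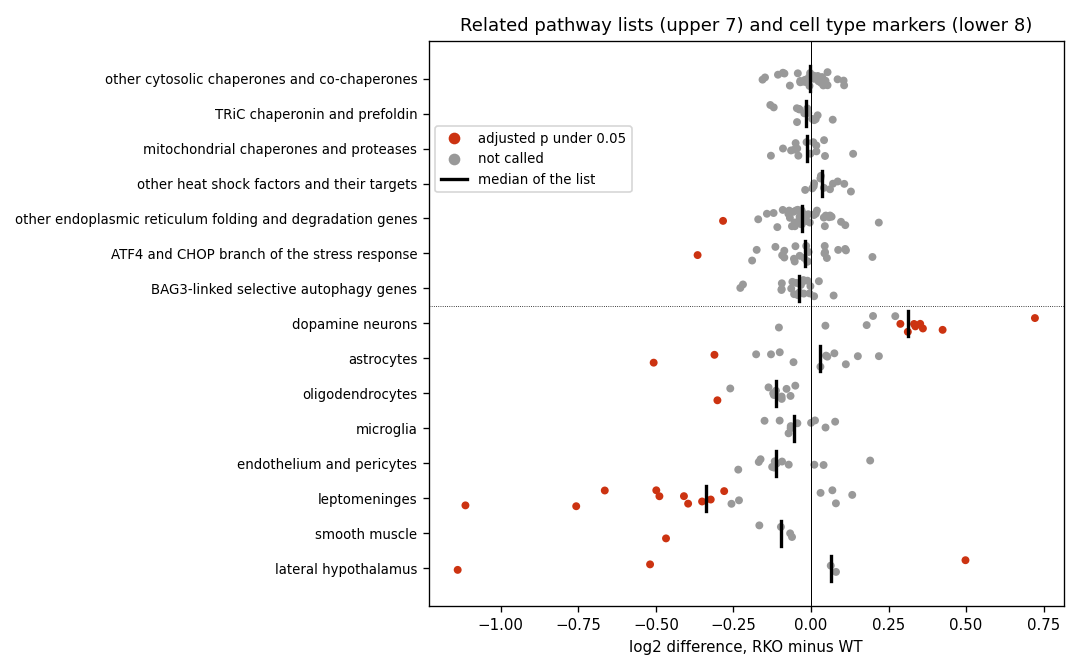
Log2 differences (RKO minus WT) of the tested genes of 7 related pathway lists, above the dotted line, and 8 lists of cell type markers, below it, with red points for an adjusted p under 0.05 and black bars at the list medians. The pathway lists centre between -0.04 and 0.04 with 2 red points (Fkbp14 and Slc7a11), while the leptomeningeal list centres at -0.34 and the dopamine neuron list at 0.31.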

How the data were processed

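RNA of 2 WT and 2 RKO samples was labelled from 1 µg of total RNA and measured on Affymetrix arrays, per the labels' protocols. The table the authors deposited holds normalized intensities of 35556 probe sets, linear in scale as read from the values. The submitters' processing notes list GCOS and RMA; their versions and settings are not given in the sources used here. RMA as usually run removes a shift common to most genes. Intensities were taken to log2 here, with no pseudocount. Symbols came from the platform annotation: 21789 probe sets had 1 symbol, 1621 several and 12146 none, and the last 2 kinds were left out. Per gene the probe set of highest mean was kept, and genes whose mean fell short of the 40th percentile over the table were not tested. The groups were compared in limma 3.58.1 (R 4.3.3; lmFit, eBayes), two-sided, with Benjamini-Hochberg adjustment over all 13587 genes and calls at an adjusted p under 0.05. SEs are moderated ones (2 residual and 8.73 prior degrees of freedom), and the number of arrays limits the precision. The test was checked on simulated data. At most 5 values were identical between any 2 arrays.

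The genes, roles and lists were chosen with earlier results of these data known. Named were all BAG genes, called genes, the highest and lowest of each role, standard readouts, genes whose groups do not overlap at an unadjusted p under 0.05, and in each pathway list the called genes or that of lowest p; the other values complete the account of the group. Alternatives were other filters, a pseudocount, other scalings, an intensity trend, the mean over probe sets, the replicate number as a block, and each array left out. Promoter windows are from RefSeq (GRCm38.p6) and were searched with Python 3.11.15.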

Additional observations from a re-analysis of the deposited data

How the results depend on the processing

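Bag3 stayed called under all 13 alternatives (log2 difference 0.51 to 0.59, limma adjusted p up to 0.0466, that being with no filter), and it was the 1 gene of the group called in each. The count of called genes, 218 as reported, was 31 with no filter, 455 with median centring, 499 with an intensity trend and 77 to 287 with 1 array left out (77 without RKO replicate 1, 109 without RKO replicate 2). The 2 calls in the pathway lists became 0 with no filter, 4 with the 60th percentile filter, 1 with quantile normalization, 4 with an intensity trend and 0 to 1 with 1 array left out. The replicate numbers are not stated to pair the samples, and the replicate differences of the groups correlated at -0.114. With the replicate number as a block 259 genes were called, Bag3 alone in the group (adjusted p = 1.93e-04). With the crossed pairing, an alternative added after the data were seen, 696 genes and 6 pathway genes were called. With a pseudocount of 16 the change of Bag3 minus that of the other BAG genes was 0.52.

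Among the named genes, differences near 0 changed sign, none of them called: after quantile normalization Bag1 (4e-04), Bag4 (0.0257), Bag5 (0.0041), Cdc37 (0.0156) and Hspa5 (0.0141), and after median centring Cirbp (-0.0043). With 1 array left out Bag1 ran from -0.0741 to 0.0221, Bag2 from -0.0354 to 0.2013, Bag4 from -0.0337 to 0.0308, Bag5 from -0.0602 to 0.0378, Bag6 from -0.0143 to 0.0532, Cdc37 from -0.0733 to 0.0504, Hspd1 from -0.0154 to 0.0602, Hspb1 from -0.1102 to 0.0534, Rbm3 from -0.0010 to 0.0489, Cirbp from -0.0614 to 0.0696, Sdf2l1 from -0.0186 to 0.1181 and Ddit3 from -0.0022 to 0.0534. Each such fit sets 1 array against 2, the lone array being assumed to vary like the others. Of 21 named genes that kept their sign under every alternative, 14 moved by over 1.5 times with 1 array left out, such as Cct3 (-0.2003 to -0.0397), Dnajb6 (0.0913 to 0.2675) and Hsf2 (-0.1121 to -0.0184). Over whole roles, genes above 0 went from 5 to 8 of 14 in the endoplasmic reticulum and from 3 to 6 of 6 in the BAG family after quantile normalization; after median centring they went to 4 of 14, from 2 to 1 of 8 in HSP70 and from 5 to 4 of 9 in J-domain genes. The cause of these moves was not tested. Of the other related genes, Synpo2 passed with the 60th percentile filter, median centring, an intensity trend and the crossed pairing (adjusted p 0.00693 to 0.542 over its alternatives). Genes near the filter, Bag2 and Dnajb6 above all, are the least precise.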

Other observations

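The genes on either side of Bag3 were read as a local comparison, chosen after its values were seen. Of the 10 protein-coding genes next to it in the RefSeq order, 5 on each side, 8 were tested and 0 were called, with log2 differences between -0.06 and 0.04. Tial1, an RNA-binding protein of stress granules, stood at -0.05 and Inpp5f, a phosphoinositide phosphatase, at -0.02. In the pathway lists 9 uncalled genes had an unadjusted p under 0.05, and their share with the called ones (7.19%) lay below the 12.8% of all tested genes. Besides Synpo2, Unc45a and Dnajc19, these were the 6 that follow. Flna, the actin crosslinker that BAG3 helps to clear, stood at -0.22 (limma adjusted p = 0.107). Atf3, a stress-induced factor, read 167 on both WT arrays and 200.1 and 184 in RKO (0.20, adjusted p = 0.170). Creb3l1, an endoplasmic reticulum membrane factor, stood at 0.22 (adjusted p = 0.128) and its relative Creb3l2 at -0.17 (adjusted p = 0.231). Nupr1 (-0.19) and the serine synthesis enzyme Phgdh (-0.17) were lower in both RKO arrays, with adjusted p = 0.156 and 0.238.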
